A study of Mus musculus with 66 samples.

Results

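The interleukin 1 receptor family genes examined here were *Il1r1*, *Il1rap*, *Il1rl1*, *Il1rl2* and *Il18r1*, 5 of the 45706 gene identifiers in the deposited tables. They were chosen by name as family members, and *Il1r1* was also chosen from its own measured values in earlier results of these libraries, so its levels and fold changes are described here without a test. Brain hemi-sections and spinal cords came from homozygous *Rorb* h1/h1 (n = 3), h2/h2 (n = 4), h3/h3 (n = 4), h4/h4 (n = 4) and h5/h5 (n = 3) mice, and from C57BL/6J (n = 3) and DBA/1J (n = 3) wild-type controls. Cortex, hippocampus and cerebellum came from 3 further h5/h5 and 3 further DBA/1J mice. All 66 libraries, in 20 groups, were made from polyadenylated RNA. Mice of both sexes were used, aged 7.9 to 9.6 weeks for brain and spinal cord and 7.0 weeks for the dissected regions.

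Each mutant line descends from 1 spontaneous mutant. A change in *Rorb*, the gene of the nuclear receptor RORβ, was identified in h1, h4 and h5. For h2 and h3 the paper proposes a *Rorb* mutation from gait, complementation tests and *Rorb* expression. In those tests h3 complemented h1 and h2, while h3 with h4 and h1 with h2 did so weakly or failed. The h1 allele, a duplication that takes in the first exon of *Rorb1*, arose on C57BL/6J. The h2 and h3 alleles, whose causal changes were not identified, arose on the albino strain B6(Cg)-Tyr c-2J/J. The h4 allele, a premature stop codon, arose on B6.129S7-Il1r1 tm1/mx/J, a strain that carries a targeted allele of *Il1r1* itself. The h5 allele, which removes the start codon of *Rorb1*, arose on DBA/1J. Mutants h1/h1 to h4/h4 were compared with C57BL/6J and h5/h5 with DBA/1J, so for h2/h2, h3/h3 and h4/h4 the *Rorb* allele and the founder strain cannot be told apart. The labels do not say whether the h4/h4 mice still carried the targeted *Il1r1* allele.

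Interleukin 1 receptors are cell-surface proteins that share an immunoglobulin-like outer part and an inner Toll/interleukin 1 receptor domain. IL1R1 binds IL-1α and IL-1β and signals only after it pairs with the accessory protein IL1RAP, which also serves IL1RL1 (ST2, the receptor for IL-33) and IL1RL2 (the receptor for IL-36). IL18R1 binds IL-18 and pairs with a different accessory chain. The paired receptors recruit MYD88 and kinases of the IRAK family and so activate NF-κB. In the rodent brain, *Il1r1* RNA is best known from endothelial cells and from granule neurons of the hippocampal dentate gyrus, and IL1RAP also has a neuronal isoform and a role at synapses.

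*Il1r1* (ENSMUSG00000026072) lies at chr1:40222480-40316201 of GRCm38. *Il1rl2* (ENSMUSG00000070942, chr1:40324589-40367555), *Il1rl1* (ENSMUSG00000026069, chr1:40404864-40465418) and *Il18r1* (ENSMUSG00000026070, chr1:40465552-40500854) follow it in the same cluster, while *Il1rap* (ENSMUSG00000022514) lies alone at chr16:26581509-26730128. *Rorb* lies on another chromosome, at chr19:18930609-19111196. The start regions of 3 members are printed because the mutated gene encodes a factor of the ROR family, which binds the half-site AGGTCA. *Il1r1* and *Il1rap* are shown as the 2 members with the highest levels, and *Il1rl1* as the 1 member whose start region holds those letters, in capitals. Each run spans 250 bases before to 50 after a RefSeq transcript start (GRCm38.p6, plus strand), *Il1r1* at chr1:40224830-40225129, *Il1rap* at chr16:26581455-26581754 and *Il1rl1* at chr1:40439379-40439678.
Il1r1: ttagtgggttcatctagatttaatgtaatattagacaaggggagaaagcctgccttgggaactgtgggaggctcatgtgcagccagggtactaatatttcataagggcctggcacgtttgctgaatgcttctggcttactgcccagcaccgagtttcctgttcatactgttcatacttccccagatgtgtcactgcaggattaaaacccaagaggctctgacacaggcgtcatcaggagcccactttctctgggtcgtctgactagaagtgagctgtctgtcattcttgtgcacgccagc
Il1rap: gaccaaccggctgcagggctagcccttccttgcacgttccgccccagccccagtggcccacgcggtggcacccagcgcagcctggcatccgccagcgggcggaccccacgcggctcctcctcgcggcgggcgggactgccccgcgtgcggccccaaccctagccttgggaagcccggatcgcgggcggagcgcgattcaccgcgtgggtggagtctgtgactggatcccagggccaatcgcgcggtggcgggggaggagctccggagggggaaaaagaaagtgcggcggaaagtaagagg
Il1rl1: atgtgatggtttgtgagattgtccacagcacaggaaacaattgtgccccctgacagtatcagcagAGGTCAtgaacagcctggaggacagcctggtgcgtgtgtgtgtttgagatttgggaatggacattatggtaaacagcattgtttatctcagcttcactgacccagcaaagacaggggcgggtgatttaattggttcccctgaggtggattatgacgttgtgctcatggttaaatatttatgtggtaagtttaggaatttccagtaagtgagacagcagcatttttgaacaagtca
Of the 9 start regions listed for the 5 members, only this 1 of *Il1rl1* held AGGTCA on either strand, with its first base at position -185 from the start. Among all 32851 start regions of the same length, 5340 (16.3%) held it on either strand. The search covered these letters only.

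Library totals ran from 32889755 to 59120536 expected counts. Levels are given as CPM, the expected count scaled to the library's total, or as deposited TPM, which also divides by length and is the scale for comparing genes. Fitted log2 fold changes were scaled by edgeR's TMM factors instead, so they can differ from ratios of these CPM. *Rorb* itself was low in h4/h4 (9.998 to 15.4 CPM in brain against 51.5 to 61.6 in C57BL/6J, and 7.12 to 10.1 against 37.1 to 41.2 in spinal cord), lower in h2/h2 brain by a log2 fold change of -0.91, close to control in h3/h3 brain (-0.05) and above every DBA/1J library of the same tissue in h5/h5. Markers of cortex, hippocampus, cerebellum and spinal cord were each highest in the libraries so labelled. Among the brain hemi-sections, DBA/1J replicate 1 stood apart, with 21.1 CPM of summed cerebellum markers (3 of 3 measured, none at 0) against 135 to 303 CPM in the other 23, and results that use it are given with and without it where they move. In 3 libraries, the cortex, hippocampus and cerebellum of h5/h5 replicate 3, the sex-linked genes went against the labelled sex, and the h5/h5 fold changes of *Il1r1*, *Il1rap* and *Irak2* in these regions are given with and without that mouse. These are bulk tissues, in which fewer cells of a type and less RNA per cell cannot be told apart.

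*Il1rap* was by far the most abundant member in every tissue, *Il1r1* came next, *Il1rl2* was low but counted in every library, and *Il1rl1* and *Il18r1* were near the limit of detection. By median TPM over the 66 libraries, *Il1rap* stood at 30.2, *Il1r1* at 2.27, *Il1rl2* at 0.545, *Il1rl1* at 0.13 and *Il18r1* at 0.02. The ranges of *Il1rap* (18.8 to 43.1 TPM) and *Il1r1* (1.29 to 9.13 TPM) did not meet, nor did those of *Il1rap* and any other member. *Il1r1* and *Il1rl2* (0.24 to 1.83 TPM) overlapped at the edges. *Il1rl1* (0.01 to 1.11 TPM) overlapped both *Il1rl2* and *Il18r1* (0 to 0.16 TPM), which did not meet each other. The expected counts behind these levels were 1224 to 4900 for *Il1rap*, 131 to 952 for *Il1r1*, 19 to 104 for *Il1rl2*, 1 to 23 for *Il1rl1* and 0 to 11 for *Il18r1*. *Il18r1* was at 0 in 19 of 66 libraries and never passed the low-count filter, so it enters no test and its differences were not detectable at this depth. The length that RSEM assigned to *Il1rl1*, by which its TPM is divided, ran from 558 to 5302 bases between libraries and that of *Il1rl2* from 1260 to 3908 bases, so both are compared between libraries by CPM.

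**Figure D1:**
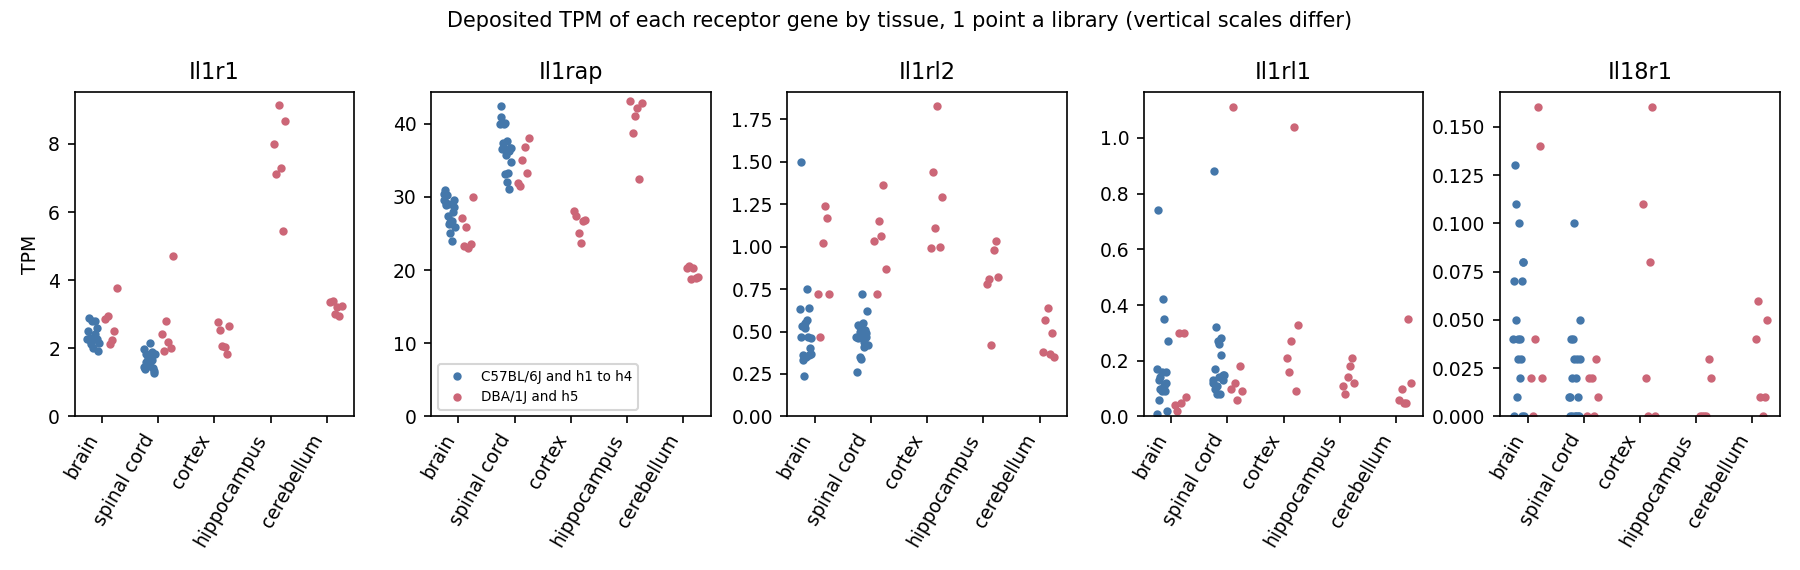
Deposited TPM of the 5 receptor genes in each library, by tissue, with libraries of C57BL/6J and h1 to h4 mice in blue and those of DBA/1J and h5 mice in red; each panel has its own linear scale from 0. *Il1r1* reaches 5.43 to 9.13 TPM in the 6 hippocampus libraries and stays at or under 4.70 TPM elsewhere, and *Il1rap* is lowest in cerebellum.

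*Il1r1* was highest in the hippocampus, where its mean was 3.16-fold that of the cortex and 2.62-fold that of the cerebellum of the same DBA/1J mice. Its level was 20.1, 17.1 and 20.8 CPM in the 3 DBA/1J hippocampi. In cortex of these mice it was 7.30, 6.15 and 4.90 CPM, and in cerebellum 7.63, 7.57 and 6.96 CPM. Every hippocampus stood above every cortex and cerebellum, and cortex and cerebellum overlapped. With the animal as a block, the log2 fold change was 1.62 ± 0.14 (SE, n = 3 mice) for hippocampus over cortex, 1.44 ± 0.10 over cerebellum and 0.16 ± 0.13 for cerebellum over cortex, which was 0.41 on the TPM scale. The hippocampus was also highest in h5/h5 mice, with 17.2, 13.3 and 19.7 CPM in hippocampus, 4.86, 4.63 and 6.35 CPM in cortex and 7.47, 6.66 and 7.29 CPM in cerebellum. In h5/h5 the hippocampus-to-cortex ratio of mean CPM was 3.17, and every cerebellum was also above every cortex. Without replicate 3 the remaining 2 h5/h5 hippocampi, at 17.2 and 13.3 CPM, were still above every cortex and cerebellum library.

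Choroid plexus markers and *Il1r1* were lowest in the same hippocampus of each genotype. Their summed level (4 of 4 markers measured: *Ttr*, *Folr1*, *Kl* and *Kcne2*, none at 0 in a hippocampus) was 2643, 798 and 3298 CPM in DBA/1J replicates 1 to 3 and 2636, 139 and 2430 CPM in h5/h5 replicates 1 to 3. In each genotype the hippocampus with the least choroid plexus signal, replicate 2, also had the lowest *Il1r1*. Between replicates 1 and 3 the order was also shared in DBA/1J. In h5/h5 replicate 1 held more of these markers and less *Il1r1* than replicate 3. The h5/h5 hippocampus at 139 CPM was within the range of the cortex libraries for these markers (11.4 to 459 CPM), and its *Il1r1*, at 13.3 CPM, was above all 12 cortex and cerebellum libraries. The 3 DBA/1J cerebella held 1300 to 1794 CPM of these markers, at 6.96 to 7.63 CPM of *Il1r1*. Meningeal markers (4 of 4 measured) were also higher in DBA/1J hippocampus, at 82.5 to 127 CPM, than in cortex, at 43.4 to 48.9 CPM, and the cerebella held 101.2 to 106.6 CPM. The part of choroid plexus or meninges in the size of the difference was not tested. Endothelial markers (10 of 10 measured) summed to 260 to 308 CPM in hippocampus, 250 to 433 CPM in cortex and 264 to 286 CPM in cerebellum.

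Between brain and spinal cord, *Il1r1* was lower in the spinal cord of C57BL/6J mice. The brain libraries held 5.72, 6.23 and 7.24 CPM and the spinal cords 5.18, 3.59 and 3.52 CPM, a log2 fold change of -0.67 ± 0.15. The groups did not overlap in h1/h1, h2/h2 or h3/h3 mice either, with spinal cord to brain ratios of mean CPM of 0.749, 0.714 and 0.773, while in h4/h4 (0.674) a spinal cord at 4.94 CPM met a brain at 4.90 CPM. In DBA/1J the brains, at 7.33, 7.27 and 5.34 CPM, and the spinal cords, at 5.99, 4.85 and 7.08 CPM, overlapped (log2 fold change -0.19 ± 0.17, and -0.14 without replicate 1). Leaving out any 1 mouse moved the DBA/1J value between -0.42 and -0.01. The DBA/1J spinal cords were higher than those of C57BL/6J by a log2 fold change of 0.56 ± 0.16, with 1 DBA/1J library, at 4.85 CPM, below the highest C57BL/6J library, and the brains differed by 0.10 ± 0.14 (0.03 without DBA/1J replicate 1). Leaving out any 1 library moved the strain difference between 0.45 and 0.76 in spinal cord and between 0.02 and 0.23 in brain.

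**Figure D2:**
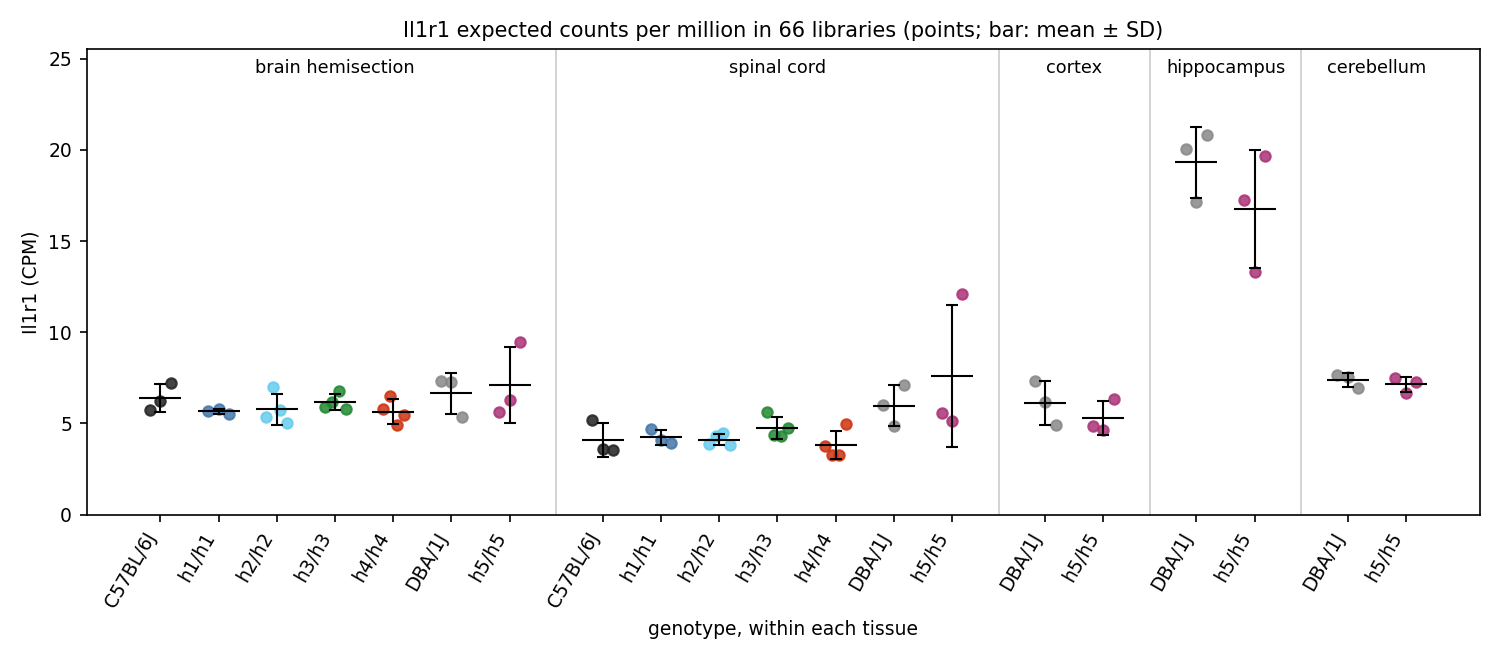
*Il1r1* level (CPM, linear scale from 0) in each of 66 libraries, by tissue and genotype; points are libraries and bars are the mean ± SD of a group. The hippocampus libraries sit between 13.3 and 20.8 CPM, and h5/h5 replicate 3 stands above the other brain (9.46 CPM) and spinal cord (12.1 CPM) libraries.

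Differences in *Il1r1* between *Rorb* mutants and controls were small beside those of the hippocampus. Over the 13 comparisons of a mutant with its control, its log2 fold change ran from -0.24 to 0.31, lower in 8 and higher in 5. Leaving out 1 library turned the sign in h3/h3 brain (-0.11 to 0.04). It did so too in h2/h2 (-0.10 to 0.21) and h4/h4 spinal cord (-0.24 to 0.13). The sign held in h1/h1, h2/h2 and h4/h4 brain and in h1/h1 (0.02 to 0.33) and h3/h3 spinal cord (0.14 to 0.45). In brain *Il1r1* was 5.51 to 5.77 CPM in h1/h1 and 5.03 to 6.98 CPM in h2/h2, with log2 fold changes of -0.17 ± 0.12 and -0.13 ± 0.13. In spinal cord it was 3.93 to 4.71 CPM and 3.83 to 4.47 CPM (0.12 ± 0.15 and 0.00 ± 0.14), within the range of the controls. In h4/h4, whose founder strain carried a targeted *Il1r1*, the gene was still read, with 5.76, 6.48, 4.90 and 5.44 CPM in brain and 3.74, 3.27, 3.27 and 4.94 CPM in spinal cord. Both sets overlapped the C57BL/6J values given above, and the log2 fold changes were -0.15 ± 0.11 in brain and -0.08 ± 0.17 in spinal cord. Against h3/h3 (5.91, 6.15, 6.79 and 5.79 CPM in brain, and 5.61, 4.35, 4.33 and 4.77 CPM in spinal cord) they were -0.08 ± 0.09 and -0.32 ± 0.15, the latter -0.50 without h4/h4 replicate 4. Against C57BL/6J, *Il1r1* in h3/h3 itself stood at -0.06 ± 0.10 in brain and 0.25 ± 0.15 in spinal cord. A count over the whole gene does not show which of its exons were read, so these values do not tell which *Il1r1* allele was present.

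Among the genes around *Il1r1*, 1 was called in h4/h4. Of the 97 other genes within 50 positions on either side, 50 were tested in h4/h4 brain against C57BL/6J and 0 were called by edgeR's quasi-likelihood test at an adjusted p of 0.05, with 8 at an unadjusted p under 0.05. Of 17789 genes tested there, 0.703% were called and 2349 had an unadjusted p under 0.05. In spinal cord 1 of 50 was called, beside 1.75% of all genes. It was *Npas2*, a transcription factor of the circadian clock, 18 genes before *Il1r1* at chr1:39193702-39363240. Its level was 6.87, 6.12, 6.03 and 7.35 CPM in h4/h4 spinal cord and 12.4, 11.0 and 11.1 CPM in C57BL/6J, with no overlap (log2 fold change -0.77 ± 0.09, edgeR adjusted p = 0.000574). The other mutants were low too, and h1/h1 (7.97 to 10.7 CPM), h2/h2 (6.97 to 8.31 CPM) and h3/h3 spinal cords also stood below every C57BL/6J library. Against h3/h3, whose spinal cords held 7.05 to 9.63 CPM, *Npas2* differed by -0.39 ± 0.12 (adjusted p = 0.151), and in brain by -0.14 ± 0.09 against C57BL/6J (adjusted p = 0.569). Against h3/h3, 0 of 49 neighbors in brain and 0 of 50 in spinal cord were called, with 4 and 9 at an unadjusted p under 0.05, where 0.131% and 1.28% of all genes were called and 1221 of 17526 and 2158 of 17249 genes had an unadjusted p under 0.05.

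The highest *Il1r1* of any brain or spinal cord came from 1 animal, h5/h5 replicate 3, at 9.46 CPM in brain and 12.1 CPM in spinal cord. The other 23 brains ran from 4.90 to 7.33 CPM and the other 23 spinal cords from 3.27 to 7.08 CPM. The spinal cord of that mouse also held the highest summed meningeal markers (4 of 4 measured, *Dcn*, *Lum*, *Col1a1* and *Col1a2*, none at 0), 339 CPM against 68.7 and 53.7 CPM in the other h5/h5 spinal cords and 43.7 to 64.9 CPM in DBA/1J. In its brain they reached 102 CPM, against 55.7 to 90.5 CPM in the other h5/h5 and DBA/1J brains. An h1/h1 brain, replicate 1, held more of these markers, 124 CPM, at 5.69 CPM of *Il1r1*. The part of meninges in its *Il1r1* level was not tested. The h5/h5 against DBA/1J log2 fold change was 0.31 ± 0.30 in spinal cord and 0.02 ± 0.19 in brain, and without this mouse it was -0.19 and -0.21. Without DBA/1J replicate 1 the brain value was 0.08. In the dissected regions it was -0.24 ± 0.18 in cortex, -0.22 ± 0.14 in hippocampus and -0.05 ± 0.11 in cerebellum. Without the region mouse at odds with its labelled sex these were -0.40, -0.34 and -0.06.

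*Il1rap*, the shared accessory chain, had a tissue pattern of its own, high in hippocampus and spinal cord and low in cerebellum. In DBA/1J it was 85.9, 75.3 and 76.9 CPM in hippocampus, 60.9, 53.9 and 48.2 CPM in cortex and 37.6, 37.7 and 36.6 CPM in cerebellum. None of these 3 groups overlapped. *Il1rap* was higher in hippocampus than in cortex by a log2 fold change of 0.51 ± 0.06 (edgeR adjusted p = 0.00197, where 22.2% of all genes were called) and than in cerebellum by 1.14 ± 0.06 (2.23e-07, 62.5%). It was lower in cerebellum than in cortex by -0.66 ± 0.08 (0.000205, 57.3%). The h5/h5 regions had the same order without overlap, at 63.3 to 82.3 CPM, 44.8 to 52.2 CPM and 35.6 to 37.1 CPM, with or without replicate 3. Choroid plexus and meningeal markers, given above, were also higher in DBA/1J hippocampus than in cortex. In each genotype the hippocampus with the least choroid plexus signal, replicate 2, also had the lowest *Il1rap* (75.3 and 63.3 CPM). DBA/1J cerebellum, lowest in *Il1rap*, held more of both marker sums than cortex too. Their part in the *Il1rap* differences was not tested.

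In spinal cord *Il1rap* rose above brain in both strains. The C57BL/6J spinal cords held 92.3, 92.7 and 90.8 CPM and the brains 60.4, 60.1 and 64.3 CPM (log2 fold change 0.56 ± 0.06, edgeR adjusted p = 2.63e-06, where 55.7% of all genes were called). In DBA/1J they held 69.2, 68.8 and 77.1 CPM against 56.0, 46.2 and 52.1 CPM (0.44 ± 0.07, adjusted p = 0.000712, 50.8%), and the difference was 0.51 without replicate 1. All 7 genotypes had every spinal cord above every brain, with ratios of mean CPM from 1.35 to 1.52. The length that RSEM gave *Il1rap* also differed, at 4202 to 4301 bases over 24 spinal cords against 3947 to 4116 bases over 24 brains. On the TPM scale the C57BL/6J difference came to a log2 ratio of 0.44. Over all genotypes, oligodendrocyte markers (18540 to 27331 against 4953 to 7709 CPM) and astrocyte markers (3467 to 4351 against 1782 to 2408 CPM) were also higher in spinal cord than in brain. Choroid plexus markers were lower (4.44 to 7.96 against 208 to 630 CPM). The part of any of these in the *Il1rap* difference was not tested.

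*Il1rap* was lower in DBA/1J than in C57BL/6J spinal cord, by a log2 fold change of -0.34 ± 0.04 (edgeR adjusted p = 3.78e-05, where 21.3% of all genes were called), with no overlap between the strains. In brain the difference was -0.22 ± 0.07 (adjusted p = 0.0737, where 11.2% of genes were called), again without overlap. *Il1rap* was lowest in cerebellum, and the DBA/1J brain with few cerebellum markers, replicate 1, held the most *Il1rap* of the 3, at 56.0 CPM. Without it the difference was -0.28 and passed the test (adjusted p = 0.0361). Oligodendrocyte markers (5380 to 6286 against 6629 to 7483 CPM) and astrocyte markers (1782 to 1949 against 2030 to 2301 CPM) were also lower in DBA/1J than in C57BL/6J brain, without overlap. Endothelial markers were lower there too (295.1 to 321.6 against 322.3 to 345.7 CPM). In spinal cord the microglial markers were higher in DBA/1J, with values given below for *Il1b*. The part of cerebellum, of any of these cell types or of marker lists not given here in the *Il1rap* differences was not tested. Reads of both strains were aligned to a single C57BL/6J-derived genome.

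**Figure D3:**
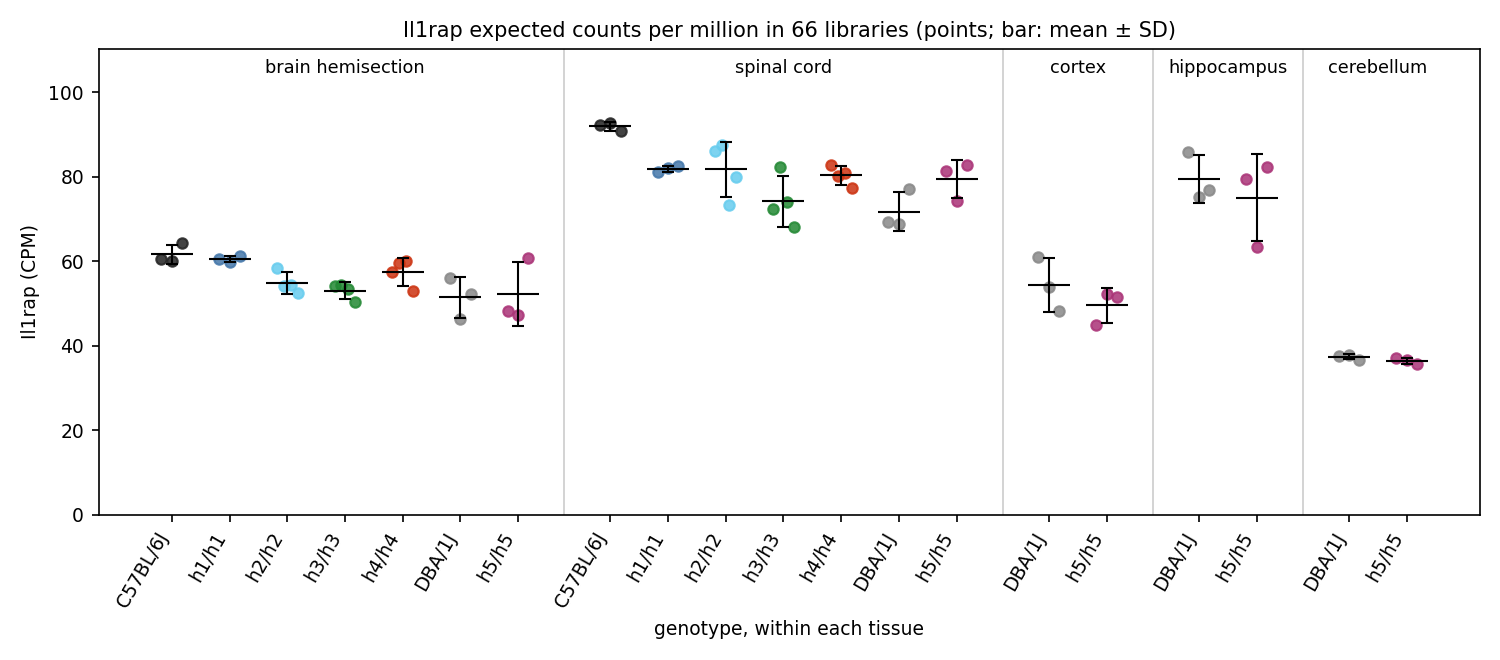
*Il1rap* level (CPM, linear scale from 0) in each of 66 libraries, by tissue and genotype; points are libraries and bars are the mean ± SD of a group. The 3 C57BL/6J spinal cords, at 90.8 to 92.7 CPM, stand above the spinal cords of h1/h1 to h4/h4, and cerebellum is lowest, at 35.6 to 37.7 CPM.

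The clearest difference between *Rorb* mutants and controls within the family was also in *Il1rap*, and it was small. In spinal cord it was 81.2, 82.0 and 82.6 CPM in h1/h1, 86.2, 87.6, 73.3 and 79.9 CPM in h2/h2, 72.5, 82.4, 73.98 and 68.0 CPM in h3/h3 and 82.9, 80.2, 80.9 and 77.4 CPM in h4/h4. By CPM, all 15 stood below all 3 C57BL/6J libraries, a position shared with 1.12% of 18198 genes. In h1/h1 the mean was 81.9 CPM against 91.9 CPM in C57BL/6J, while the fit, scaled by TMM, gave a log2 fold change of -0.08. *Il1rap* fell by 0.28 on the log2 scale in h3/h3 (SE 0.05, edgeR adjusted p = 0.0175, where 1.01% of all genes were called) and by 0.17 in h4/h4 (SE 0.03, adjusted p = 0.0141, where 1.75% were called). The values in h2/h2 (-0.17 ± 0.04, adjusted p = 0.0564, 2.09% called) and h1/h1 (-0.08 ± 0.04, adjusted p = 0.415, 0.289% called) did not pass, but DESeq2 (adjusted p = 0.0157) and edgeR without the low-count filter (adjusted p = 0.00169) called h2/h2. These 4 comparisons share the same 3 controls, so they are not independent of each other.

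Neither call held throughout. The h3/h3 call ended with sex as a covariate (adjusted p = 0.1), in a group of 3 males and 1 female, and on leaving out any 1 of the 3 controls (adjusted p 0.0686 to 0.105). The h4/h4 call ended with all groups of the tissue in one fit (adjusted p = 0.0749), and without C57BL/6J replicate 1 (0.0976), C57BL/6J replicate 2 (0.0629) or h4/h4 replicate 4 (0.0585). Oligodendrocyte markers (6 of 6 measured, none at 0) summed to 18540 to 24004 CPM in h3/h3 spinal cord, below the 24040 to 25097 CPM of C57BL/6J, and to 22423 to 25192 CPM in h4/h4, which overlapped it. Astrocyte markers (6 of 6 measured, none at 0) summed to 3595 to 4074 CPM in h3/h3, below the 4134 to 4159 CPM of C57BL/6J, and to 3979 to 4351 CPM in h4/h4. In spinal cord the summed meningeal markers were also higher in h4/h4 (60.2 to 69.6 CPM) than in C57BL/6J (49.8 to 55.3 CPM). In h3/h3 spinal cord the microglial markers were higher (242 to 273 against 226 to 227 CPM) and the blood markers lower (101.2 to 161 against 183 to 247 CPM) than in C57BL/6J. The part of any of these in the *Il1rap* differences was not tested.

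In brain *Il1rap* was 60.6, 59.9 and 61.2 CPM in h1/h1, 58.5, 54.1, 54.5 and 52.5 CPM in h2/h2, 54.2, 54.3, 53.4 and 50.3 CPM in h3/h3 and 57.6, 59.7, 59.9 and 52.9 CPM in h4/h4. These groups share the same controls, and the share of all genes with a whole group below its controls in brain was not counted. By CPM, the groups h2/h2, h3/h3 and h4/h4 lay below the 3 C57BL/6J brains and h1/h1 overlapped them. None passed edgeR's test, with log2 fold changes of -0.02 ± 0.06 (adjusted p = 0.998, 0.0% of all genes called), -0.15 ± 0.05 (0.560, 0.136%), -0.22 ± 0.05 (0.131, 0.164%) and -0.06 ± 0.05 (0.630, 0.703%) in that order. DESeq2 called the h3/h3 brain (adjusted p = 0.0133).

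In h5/h5 against DBA/1J, *Il1rap* overlapped its control in brain (48.3, 47.3 and 60.9 CPM), spinal cord (81.3, 74.3 and 82.7 CPM) and all 3 dissected regions. Its log2 fold change was -0.05 ± 0.09 for brain and 0.11 ± 0.05 for spinal cord. In the regions it was -0.16 ± 0.09 (cortex), -0.10 ± 0.09 (hippocampus) and -0.04 ± 0.06 (cerebellum). The edgeR adjusted p-values over all 5 tissues ran from 0.558 (spinal cord) to 0.997 (hippocampus). Without h5/h5 replicate 3 the regions gave -0.20, -0.15 and -0.02 (adjusted p 0.814 to 0.985), and without DBA/1J replicate 1 the brain gave 0.00. Few genes of any kind were called there, 0.0% for brain and for cortex, 0.00581% for spinal cord, 0.0118% for hippocampus and 0.012% for cerebellum. Against h3/h3, h4/h4 *Il1rap* differed by 0.16 ± 0.04 in brain (adjusted p = 0.348) and 0.11 ± 0.04 in spinal cord (0.290).

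**Figure D4:**
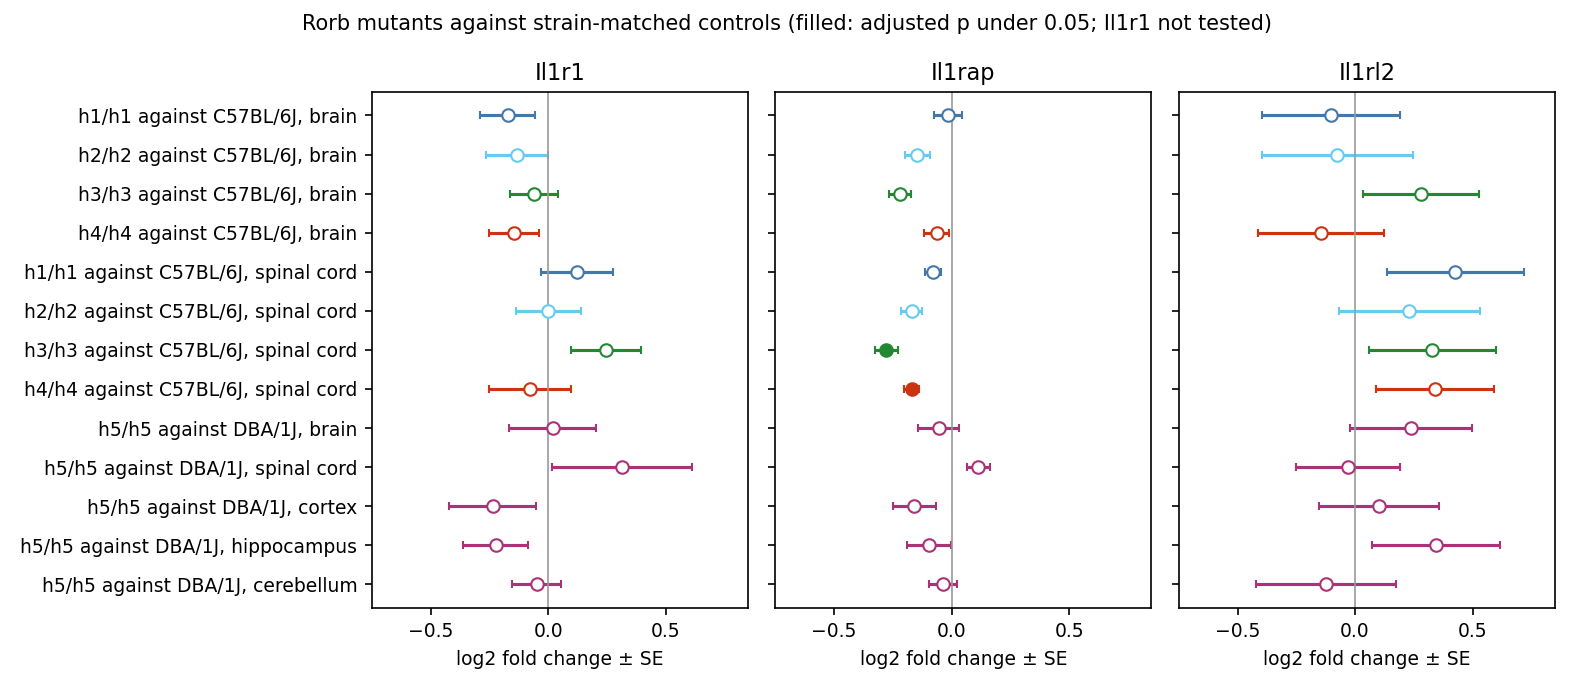
Log2 fold change ± SE of *Il1r1*, *Il1rap* and *Il1rl2* in the 13 comparisons of a *Rorb* mutant with its control, from edgeR; filled points had an adjusted p under 0.05 and *Il1r1* was not tested. The 2 filled points are *Il1rap* in h3/h3 (-0.28) and h4/h4 (-0.17) spinal cord.

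*Il1rl2*, the IL-36 receptor, differed between the strains in spinal cord and between cerebellum and cortex. In spinal cord it was 1.57, 1.27 and 2.31 CPM in DBA/1J and 0.881, 0.513 and 0.813 CPM in C57BL/6J, without overlap (log2 fold change 1.23 ± 0.28, edgeR adjusted p = 0.00709, where 21.3% of all genes were called). In brain it was 1.30, 0.879 and 1.46 CPM in DBA/1J and 0.744, 0.788 and 0.918 CPM in C57BL/6J, which overlapped with or without DBA/1J replicate 1 (0.61 ± 0.27, adjusted p = 0.204). In DBA/1J it was lower in cerebellum (0.681, 0.713 and 0.825 CPM) than in cortex (1.72, 1.73 and 1.57 CPM), by -1.30 ± 0.28 (adjusted p = 0.00431, where 57.3% of all genes were called). Hippocampus, at 1.42, 1.4995 and 0.787 CPM, stood below every cortex and overlapped cerebellum, and neither difference passed the test (adjusted p 0.209 and 0.0868). For hippocampus against cerebellum, where *Il1rap* and *Il1rl2* were tested, 2 members were called with no animal block or without replicate 3. In the 13 mutant comparisons the *Il1rl2* log2 fold change ran from -0.14 to 0.43, and the smallest adjusted p was 0.610. Summed microglial markers were also higher in DBA/1J than in C57BL/6J spinal cord, with values given below for *Il1b*. Over both genotypes, cerebellum held less microglial (87.2 to 99.4 against 276 to 355 CPM) and oligodendrocyte precursor signal (35.9 to 43.0 against 83.7 to 109 CPM) than cortex. Its astrocyte markers were higher (3284 to 3483 against 1327 to 1866 CPM). The part of any of these in the *Il1rl2* differences was not tested.

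*Il1rl1* (ST2) stayed at or under 0.523 CPM in all 66 libraries, with 10 or more counts in 42. It passed the filter in 10 of the 13 mutant comparisons, where its log2 fold change ran from -0.25 to 0.60 with standard errors of 0.37 to 0.63, and the smallest adjusted p was 0.765. Differences of that size were not detectable at this depth. *Il18r1* reached 0.303 CPM at most.

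Counted over the 3 members that were tested (*Il1rap*, *Il1rl2* and *Il1rl1*), edgeR called 2 of 36 member tests in the 13 mutant comparisons, both *Il1rap* and both lower, in comparisons where 0.0% to 2.09% of all genes were called. Another 5 had an unadjusted p under 0.05, and DESeq2 called 4 of the 36. Over all genes, from 715 of 16961 (h5/h5 hippocampus) to 2723 of 17464 (h2/h2 spinal cord) had an unadjusted p under 0.05 in a comparison, and DESeq2 called from 17 (h1/h1 brain) to 570 genes (h4/h4 spinal cord). Of the 6 tests of h4/h4 against h3/h3, edgeR and DESeq2 each called 0, with 2 at an unadjusted p under 0.05. Between the strains 2 of 6 were called, where 11.2% (brain) and 21.3% (spinal cord) of all genes were, and between tissues of the wild types 6 of 11, in comparisons where 22.2% to 62.5% of all genes were called.

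Ligands and antagonists of the family were mostly scarce. Of 11 listed, 4 to 6 passed the filter in the genotype comparisons. *Il33*, the alarmin that binds IL1RL1, was the most abundant, at 47.5 to 51.9 CPM in C57BL/6J brain and 105 to 116 CPM in C57BL/6J spinal cord. In DBA/1J it was lower, at 26.6 to 32.9 CPM in brain (log2 fold change -0.77 ± 0.08, edgeR adjusted p = 0.000322) and 50.8 to 63.2 CPM in spinal cord (-1.01 ± 0.06, 6.91e-08). *Il36g*, a ligand of IL1RL2, was read in spinal cord, at 21, 22 and 36 expected counts in C57BL/6J and 29, 13 and 23 in DBA/1J, and at 0 in the C57BL/6J brains and 0, 1 and 0 in the DBA/1J brains. *Il1b* was at 24, 16 and 27 expected counts in DBA/1J spinal cord and 1, 9 and 3 in C57BL/6J, higher by 2.47 ± 0.57 (adjusted p = 0.00755). Without C57BL/6J replicate 2 it was 3.58 and without C57BL/6J replicate 1 it was 1.97. Summed microglial markers were also higher in the DBA/1J spinal cords (230.04 to 332 CPM) than in those of C57BL/6J (226 to 227 CPM), and their part in the *Il1b* difference was not tested.

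Among the other receptors and relatives, *Il1rapl1*, which encodes an accessory-like protein of neuronal synapses, was lower in spinal cord than in brain, at 13.0, 13.8 and 11.2 CPM against 27.4, 28.6 and 31.2 CPM in C57BL/6J (log2 fold change -1.22 ± 0.09, edgeR adjusted p = 6.1e-08). It was also lower in hippocampus than in cortex (-1.12 ± 0.11, adjusted p = 0.000713), where *Il1rap* was higher.

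Downstream of the receptors, 1 kinase gene stood out in h4/h4. *Irak2* (chr6:113638467-113695026) encodes an IRAK-family kinase that carries the signal from MYD88 to TRAF6. In brain it was 9.75, 9.00, 8.46 and 9.90 CPM in h4/h4 against 14.6, 15.2 and 15.96 CPM in C57BL/6J and 14.1, 15.5, 14.2 and 15.3 CPM in h3/h3. In spinal cord it was 11.6, 12.2, 10.8 and 11.0 CPM against 16.1, 16.8 and 16.7 CPM in C57BL/6J and 13.5, 17.7, 17.7 and 16.04 CPM in h3/h3. No h4/h4 library met a library of either other group. *Irak2* fell by 0.68 on the log2 scale in brain (SE 0.09, edgeR adjusted p = 0.00393) and by 0.51 in spinal cord (SE 0.07, 0.00142) against C57BL/6J, and by 0.63 (SE 0.08, 0.0056) and 0.51 (SE 0.09, 0.015) against h3/h3. The spinal cord call against h3/h3 ended without h4/h4 replicate 3 (adjusted p = 0.0527).

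*Irak2* in h5/h5 was looked at after its values in h4/h4 were seen. In brain it was 11.7, 11.3 and 12.3 CPM against 16.7, 15.3 and 16.2 CPM in DBA/1J, in spinal cord 13.7, 14.6 and 15.6 against 17.8, 18.1 and 17.0 CPM, in cortex 12.3, 10.4 and 13.3 against 21.7, 17.7 and 16.6 CPM, and in hippocampus 9.49, 8.09 and 10.4 against 14.1, 15.4 and 14.2 CPM. In cerebellum the levels were 11.4, 9.99 and 12.5 CPM against 12.5, 14.7 and 14.1 CPM. Summed meningeal markers were higher in h5/h5 than in DBA/1J in brain (86.3 to 101.9 against 55.7 to 73.8 CPM) and in cortex (63.9 to 82.7 against 43.4 to 48.9 CPM), as were astrocyte markers (1950 to 2408 against 1782 to 1949 CPM) and cerebellar markers (260 to 296 against 21.1 to 233 CPM) in brain. In cerebellum the choroid plexus markers were lower in h5/h5 than in DBA/1J, without overlap. The part of these, or of marker lists not given here for any of the tissues, in the *Irak2* values was not tested. The *Irak2* log2 fold changes were -0.52 ± 0.08, -0.31 ± 0.08, -0.66 ± 0.13, -0.66 ± 0.11 and -0.29 ± 0.11. EdgeR called none of them after adjustment over all genes (adjusted p 0.234 to 0.857), but it called brain with all groups of the tissue in one fit (0.00647) or with no low-count filter (0.0432), and cortex without DBA/1J replicate 3 (0.0371). All 5 had an unadjusted p under 0.05, and DESeq2 called brain, cortex and hippocampus (adjusted p = 0.00257, 0.00357 and 0.000514). Without h5/h5 replicate 3, edgeR gave -0.76 (cortex), -0.73 (hippocampus) and -0.36 (cerebellum), at adjusted p 0.554 to 0.584, and the DESeq2 calls include that mouse. Without DBA/1J replicate 1 the brain value was -0.51 (adjusted p = 0.275). In h3/h3 against C57BL/6J, *Irak2* differed by -0.05 ± 0.07 in brain and 0.01 ± 0.10 in spinal cord, with overlap. In h1/h1 it was 13.0, 14.5 and 13.2 CPM in brain and 15.6, 14.8 and 14.8 CPM in spinal cord, and in h2/h2 spinal cord 14.8, 14.3, 14.2 and 14.7 CPM. All of these stood below every C57BL/6J library of the tissue, while h2/h2 brain (12.2 to 14.9 CPM) overlapped. The share of all genes so placed was not counted, and these positions are by CPM, not by the TMM scaling of the fits. The log2 fold changes were -0.16 ± 0.08 in h1/h1 brain, -0.05 ± 0.07 in h1/h1 spinal cord, -0.12 ± 0.08 in h2/h2 brain and -0.18 ± 0.06 in h2/h2 spinal cord. EdgeR called none of them (adjusted p 0.117 to 0.998), and the last had an unadjusted p under 0.05.

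**Figure D5:**
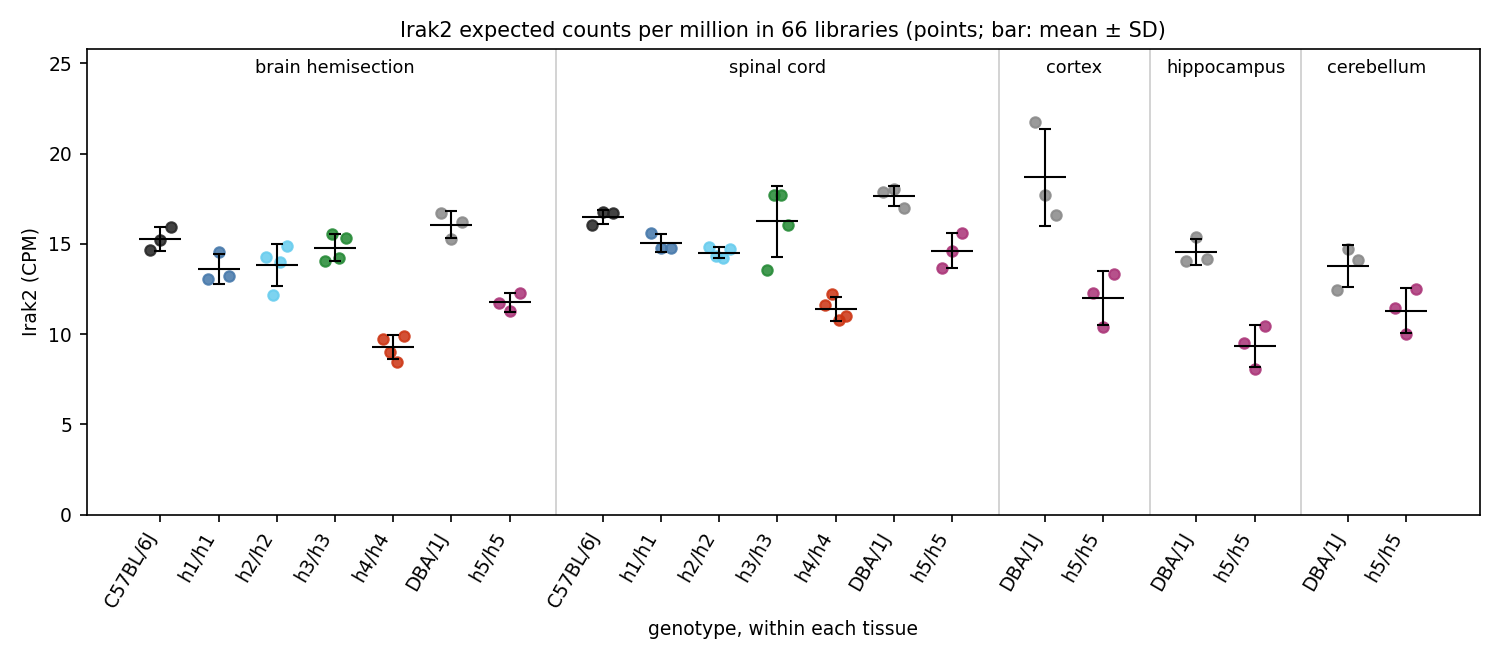
*Irak2* level (CPM, linear scale from 0) in each of 66 libraries, by tissue and genotype; points are libraries and bars are the mean ± SD of a group. The h4/h4 libraries sit at 8.46 to 9.90 CPM in brain and 10.8 to 12.2 CPM in spinal cord, below C57BL/6J and h3/h3.

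Over the whole list of 49 other genes of the pathway, *Irak2* was the 1 gene that edgeR called in any mutant against its control, in h4/h4 brain (1 of 35 tested, beside 0.703% of all genes) and h4/h4 spinal cord (1 of 37 tested, or 2.7%, beside 1.75% of all genes). In the other 11 comparisons 0 of 34 to 38 tested genes were called, with 0 to 10 at an unadjusted p under 0.05, and DESeq2 called up to 1. In h4/h4 spinal cord 2 list genes were called without C57BL/6J replicate 1 or 2, and 3 with sex as a covariate or no filter. The median log2 fold change of the tested list was -0.04 in h4/h4 brain and -0.01 in h4/h4 spinal cord, beside 0.00 over all genes in both. Against h3/h3, h4/h4 brain also had higher *Il33* (0.31 ± 0.05, adjusted p = 0.0154) and *Vcam1* (0.31 ± 0.04, 0.0138), an adhesion molecule that IL-1 induces, so that 3 of 35 list genes were called, beside 0.131% of all genes. The spinal cord had higher *Il33* (0.28 ± 0.06, adjusted p = 0.0442), and 2 of 37 were called, beside 1.28% of all genes. In brain the *Vcam1* and *Il33* calls each ended in 5 of the 8 fits that left out 1 library (adjusted p 0.0535 to 0.094), and 7 of the 8 fits that left out 1 library ended the spinal cord *Il33* call (adjusted p 0.0834 to 0.168).

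Between the strains, 5 of 35 list genes were called in brain (1 higher in DBA/1J and 4 lower) and 9 of 37 in spinal cord (4 higher and 5 lower), beside 11.2% and 21.3% of all genes. In brain 4 of the list were called without DBA/1J replicate 1 and 3 without C57BL/6J replicate 3. *Myd88*, the adapter that the receptors recruit, was lower in DBA/1J brain, at 2.77, 2.02 and 2.47 CPM against 4.15, 3.92 and 4.57 CPM (log2 fold change -0.75 ± 0.16, edgeR adjusted p = 0.0135), a call that ended without C57BL/6J replicate 3 (0.0591). *Map3k7*, the kinase TAK1, was lower in both tissues (-0.37 ± 0.05 and -0.32 ± 0.04). Its partner *Tab2* was higher in both (0.20 ± 0.05 and 0.32 ± 0.04), though the brain call for *Tab2* ended on leaving out any 1 of the 6 libraries (adjusted p 0.0526 to 0.135).

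Among target genes, *Ptgs2*, the inducible cyclooxygenase, was highest in hippocampus too, with 15.2, 12.2 and 11.9 CPM in DBA/1J hippocampus against 4.87, 7.00 and 5.55 CPM in cortex (1.14 ± 0.17, edgeR adjusted p = 0.00462) and 0.255, 0.368 and 0.519 CPM in cerebellum (5.12 ± 0.22, 4.3e-08). It was also lower in DBA/1J than C57BL/6J brain, at 4.56, 4.13 and 3.32 CPM against 7.79, 9.27 and 9.70 CPM (-1.11 ± 0.13, 0.000569). Of the list as a whole, 33.3% of 36 and 42.1% of 38 tested genes were called for spinal cord against brain in C57BL/6J and DBA/1J, where 55.7% and 50.8% of all genes were. For hippocampus against cortex it was 23.5% of 34, beside 22.2% of all genes. For cerebellum against cortex it was 58.8% of 34, beside 57.3%, and for hippocampus against cerebellum 52.9% of 34, beside 62.5%. Single mice moved these counts. For hippocampus against cortex 8 genes were called, 3 without replicate 2 and 4 without replicate 1. Without replicate 2, cerebellum against cortex fell from 20 genes to 13 and spinal cord against brain in DBA/1J from 16 to 10.

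The genes most like each abundant member were sought over the 36 brain and spinal cord libraries of C57BL/6J and h1 to h4 mice, by Pearson correlation of log2 CPM, centered on each tissue's mean, among 14718 genes. Those for *Il1rap* were *Dock10* (r = 0.782), *Adgrl4* (0.736), *Olig2* (0.725), *Igsf11* (0.722) and *Usp31* (0.722). Those for *Il1r1* were weaker, *Gm42448* (0.614), *Sstr4* (0.611), *Bicral* (0.6), *Lrp8* (0.573) and *1300002E11Rik* (0.557). The libraries share mice, tissues and depth, and these values are descriptions.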

How the data were processed

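RNA-seq was deposited for 66 libraries. Per the labels and the methods of the study, the authors trimmed paired-end reads of polyadenylated RNA with Trim Galore, checked them with FastQC, aligned them to GRCm38 with STAR and estimated genes with RSEM; the annotation version is not given in the sources used here. The deposited tables hold RSEM expected counts and TPM, which the authors made per library with no pooling, and TPM was used as deposited.

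Expected counts were rounded and tested with edgeR 4.0.16 in R 4.3.3 (quasi-likelihood test, TMM, filterByExpr, Benjamini-Hochberg adjustment over all genes tested, threshold 0.05), 1 mutant group against its strain control in 1 tissue, with the animal as a block between tissues. SE is the log2 fold change divided by the root of the F statistic. DESeq2 1.42.0, other size factors, no filter, sex as a covariate, a joint fit, the replicate number as a block and leaving out each library were alternatives. The scripts were tested on simulated data. Symbols (41388 of 45706 identifiers) came from GENCODE vM39, positions and start regions from RefSeq GRCm38.p6. Library totals of 32889755 to 59120536 set the precision of low genes. Replicates are separate mice.

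The members, gene lists and tests were chosen with earlier results of these data known. Named genes were the members, the pathway genes called (up to 5 per comparison), called neighbors of *Il1r1* and the 5 most alike genes per member with a mean of at least 1 CPM. Same-numbered libraries deviated together with a correlation over 0.1 in every pair only for h1/h1 and C57BL/6J brain (0.113 to 0.198). Correlations were also all positive for h4/h4 and C57BL/6J brain (0.094 to 0.154) and spinal cord (0.061 to 0.179), h1/h1 spinal cord and h5/h5 hippocampus. The other comparisons held negative ones.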

Additional observations from a re-analysis of the deposited data

Results flagged for a closer look

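In h2/h2 brain, *Il1rl1* stood at 0.414 CPM in replicate 3, far from the 0.217, 0.232 and 0.229 CPM of the other replicates, with a gap of 0.926 of the group's range. Of 30 sets of 4 libraries examined this was the 1 that stood out, and chance gives about 1 in 20.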

How the results depend on the processing

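With the replicate number as a block, *Il1rap* in h4/h4 spinal cord was -0.16 (adjusted p = 0.0787) and *Irak2* in h4/h4 against h3/h3 brain -0.63 (0.0514), where 0 in place of 3 list genes were called. No other call on a member changed. Same-numbered h4/h4 and C57BL/6J spinal cords had correlations of 0.061 to 0.179. The labels do not say whether same-numbered mice shared more than a number. For *Il1rap*, DESeq2 gave -0.22 in h3/h3 brain (adjusted p = 0.0133) and -0.17 in h2/h2 spinal cord (0.0157), no filter -0.17 in h2/h2 spinal cord (0.00169), sex as a covariate -0.25 in h3/h3 spinal cord (0.1), and a joint fit -0.17 in h4/h4 spinal cord (0.0749) and -0.22 in DBA/1J against C57BL/6J brain (0.021). Leaving out 1 library moved *Il1rap* between -0.31 and -0.24 in h3/h3 spinal cord, -0.18 and -0.15 in h4/h4 spinal cord, -0.28 and -0.16 in DBA/1J against C57BL/6J brain, -0.06 and 0.01 in h1/h1 brain, -0.14 and 0.01 in h5/h5 brain, and -0.16 and 0.01 in h5/h5 hippocampus. On the TPM scale *Il1rap* was -0.16 in h1/h1 spinal cord, 0.44 for spinal cord against brain in C57BL/6J, -0.44 for cerebellum against cortex and 1.05 for hippocampus against cerebellum, *Il1r1* was 0.41 and 1.31 for the last pair of contrasts, and *Il1rl2* was -1.15 for cerebellum against cortex. TPM differs from the fits both in its scaling and in its division by length, and the part of each in these shifts was not tested. DESeq2 called 3 list genes in place of 1 in h4/h4 brain and in h4/h4 spinal cord, and 10 in place of 16 for spinal cord against brain in DBA/1J; a joint fit called 8 in place of 5 for DBA/1J against C57BL/6J brain. Depth limits *Il1rl1* and *Il18r1*.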
